A study of Mus musculus with 9 samples.

Results

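Cytosolic ribosomal protein genes encode the proteins of the ribosome that works in the cytoplasm. They were taken from the count table by symbol, as rows named Rpl or Rps followed by a number and at most a few letters that mark paralogues, together with *Rplp0*, *Rplp1*, *Rplp2*, *Rpsa* and *Fau*. This gave 88 of the 27179 genes in the table, and the rule used no measured value. Of these, 86 had enough counts to be tested, 52 from the large subunit and 34 from the small subunit. Core members are here the 78 tested genes that are neither a paralogue of another member nor *Rpl6l*.

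A ribosome joins a small subunit, which reads the mRNA, to a large subunit, which forms the peptide bond and lets the new chain leave through an exit tunnel. Its proteins are needed in matched amounts, and many of their mRNAs begin with a run of pyrimidines, the TOP motif, through which growth signals control their translation. In bone and marrow these genes are known from Diamond-Blackfan anemia, in which loss of 1 copy of a ribosomal protein gene impairs red cell formation.

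The data are RNA-seq counts from whole mandibles, teeth included, of 6-month-old C57BL/6 males. There were 5 wild type (WT) mice and 4 mice labelled FcγRIIB-/-, a label for mice bred without the inhibitory Fc gamma receptor, a model of lupus. Each library came from 1 mouse. The question of the design was which genes differ between the genotypes.

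The libraries held 21453880 to 28991631 counts. *Fcgr2b*, the targeted gene, was no lower under the label FcγRIIB-/-, at 26.5, 26.0, 26.6 and 32.1 CPM (counts scaled to a fixed library size) against 20.9, 38.3, 17.0, 23.1 and 20.7 CPM in WT (log2 fold change 0.21, SE 0.201, adjusted p = 0.442, edgeR quasi-likelihood test), so the groups are called by their labels. The levels of cell type markers also differed. All 8 erythroid markers in the table were lower (summed level 110 to 491 against 1840 to 2190 CPM in WT). All 10 neutrophil precursor markers (145 to 436 against 1180 to 3560 CPM) were lower, as were 9 of 10 B lineage and 9 of 10 proliferation markers. In turn, 7 of 10 skeletal muscle markers (15800 to 26700 against 5940 to 14200 CPM) and 5 of 8 ameloblast and odontoblast markers (34500 to 57600 against 12200 to 31400 CPM) were higher. Of the 8 marker lists, keratinized epithelium had the lowest median, with 8 of 10 lower and 1 higher (median log2 fold change -5.06), and 3 of 10 osteoblast and osteocyte markers were lower and 0 higher. In bulk tissue, fewer cells of a type and less RNA per cell cannot be told apart, and the part of cell content in the values of the ribosomal protein genes was not tested.

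The start sites of these genes are shown first, because the pyrimidine run is the feature that the family is known for. Each sequence is the sense strand, 5′ to 3′, of 30 bases around a RefSeq start site on GRCm38.p6, with the start site at position 16. Capitals mark a run of at least 7 pyrimidines that overlaps the 10 bases on either side of the start. The first 6 genes have such a run and span small to large changes in this comparison, and the last 5 have none and include the members with the largest and the smallest changes among the core genes.
Fau, chr19:6057932-6057961, plus strand: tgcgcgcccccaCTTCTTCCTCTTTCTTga
Rpl28, chr7:4792950-4792979, plus strand: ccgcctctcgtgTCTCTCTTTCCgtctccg
Rpl38, chr11:114668565-114668594, plus strand: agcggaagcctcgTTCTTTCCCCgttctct
Rps26, chr10:128626492-128626521, minus strand: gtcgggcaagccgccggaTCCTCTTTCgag
Rps18, chr17:33955651-33955680, minus strand: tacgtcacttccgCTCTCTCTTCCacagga
Rplp2, chr7:141447636-141447665, plus strand: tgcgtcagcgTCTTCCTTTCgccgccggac
Rpl23, chr11:97782425-97782454, minus strand: acgaggtccggtcacgtggctgagtgggcg
Rpl26, chr11:68901551-68901580, plus strand: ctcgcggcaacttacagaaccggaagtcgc
Rps15, chr10:80292416-80292445, plus strand: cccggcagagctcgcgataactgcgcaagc
Rplp0, chr5:115559452-115559481, plus strand: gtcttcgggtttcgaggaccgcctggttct
Rpl3l, chr17:24727811-24727840, plus strand: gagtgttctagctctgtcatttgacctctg

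RefSeq promoters, from 250 bases before to 50 bases after a start, were found for 66 members with 78 start sites. A pyrimidine run lay at 47.4% of these start sites, against 19.7% of all 32851 promoters. The letters CCGGAAG, a GABP motif searched on both strands, were in 34.6% of member promoters and 8.86% of all promoters, and AAGATGG, a YY1 motif, in 16.7% and 6.34%. The letters TATAAA, a core promoter element, were in 10.3% and 13.6%. Those of the E box, CACGTG, were in 10.3% and 7.15%. The GABP and YY1 motifs can share the letters AAG, and the GABP motif on the other strand can reach into a pyrimidine run. The shares therefore need not count separate sites. A match is a description of the sequence only, at a listed start that may not be the one used in mandible. Among core members outside chromosome 18, 32 genes with a run at a listed start had a median log2 fold change of 0.20, with 9 called higher. The 26 genes without one also had a median of 0.20, with 11 called higher. Over all tested genes 14.0% were called higher. Whether these sets differ was not tested.

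Ribosomal protein genes were moderately higher in the libraries labelled FcγRIIB-/-. The edgeR quasi-likelihood test with Benjamini-Hochberg adjustment over all 16329 tested genes called 33 of the 86 tested members higher and 0 lower, that is 38.4% of them, at an adjusted p threshold of 0.05. Over all tested genes, 14.0% were called higher and 19.3% lower. Scaled to total counts without TMM, 16 members were called higher, beside 8.02% of all tested genes, with a median log2 fold change of 0.13 over the members. The log2 fold change was positive for 84 members and negative for 2, *Rplp0* (-0.03) and *Rpl7l1* (-0.02), while 50.6% of all tested genes were positive. The members had a median log2 fold change of 0.21, and all tested genes one of 0.01. In 44 members every library labelled FcγRIIB-/- was above every WT library, an arrangement that 12.1% of all tested genes had. DESeq2 called 53 members higher and 0 lower, with 14.9% of the genes it tested called higher and 17.9% lower. Other genes with transcripts under 1000 nt were higher too, with medians of 0.25 to 0.38 by class of length, and with the transcript length trend taken out the median of the members was -0.05.

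The sum of all 88 members was 22200 to 25800 CPM in WT and 26700 to 30500 CPM in the libraries labelled FcγRIIB-/-, and the groups did not overlap. As a share of raw counts the groups did overlap, at 2.54%, 2.29%, 2.51%, 2.69% and 2.44% in WT and 2.70%, 2.64%, 3.02% and 2.56% in the libraries labelled FcγRIIB-/-. The mean share was 2.49% ± 0.145 (SD, n = 5) and 2.73% ± 0.204 (SD, n = 4), a ratio of 1.10. With haemoglobin and mitochondrially encoded genes left out of the total, the means were 2.621% and 2.995%, a ratio of 1.14.

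**Figure D1:**
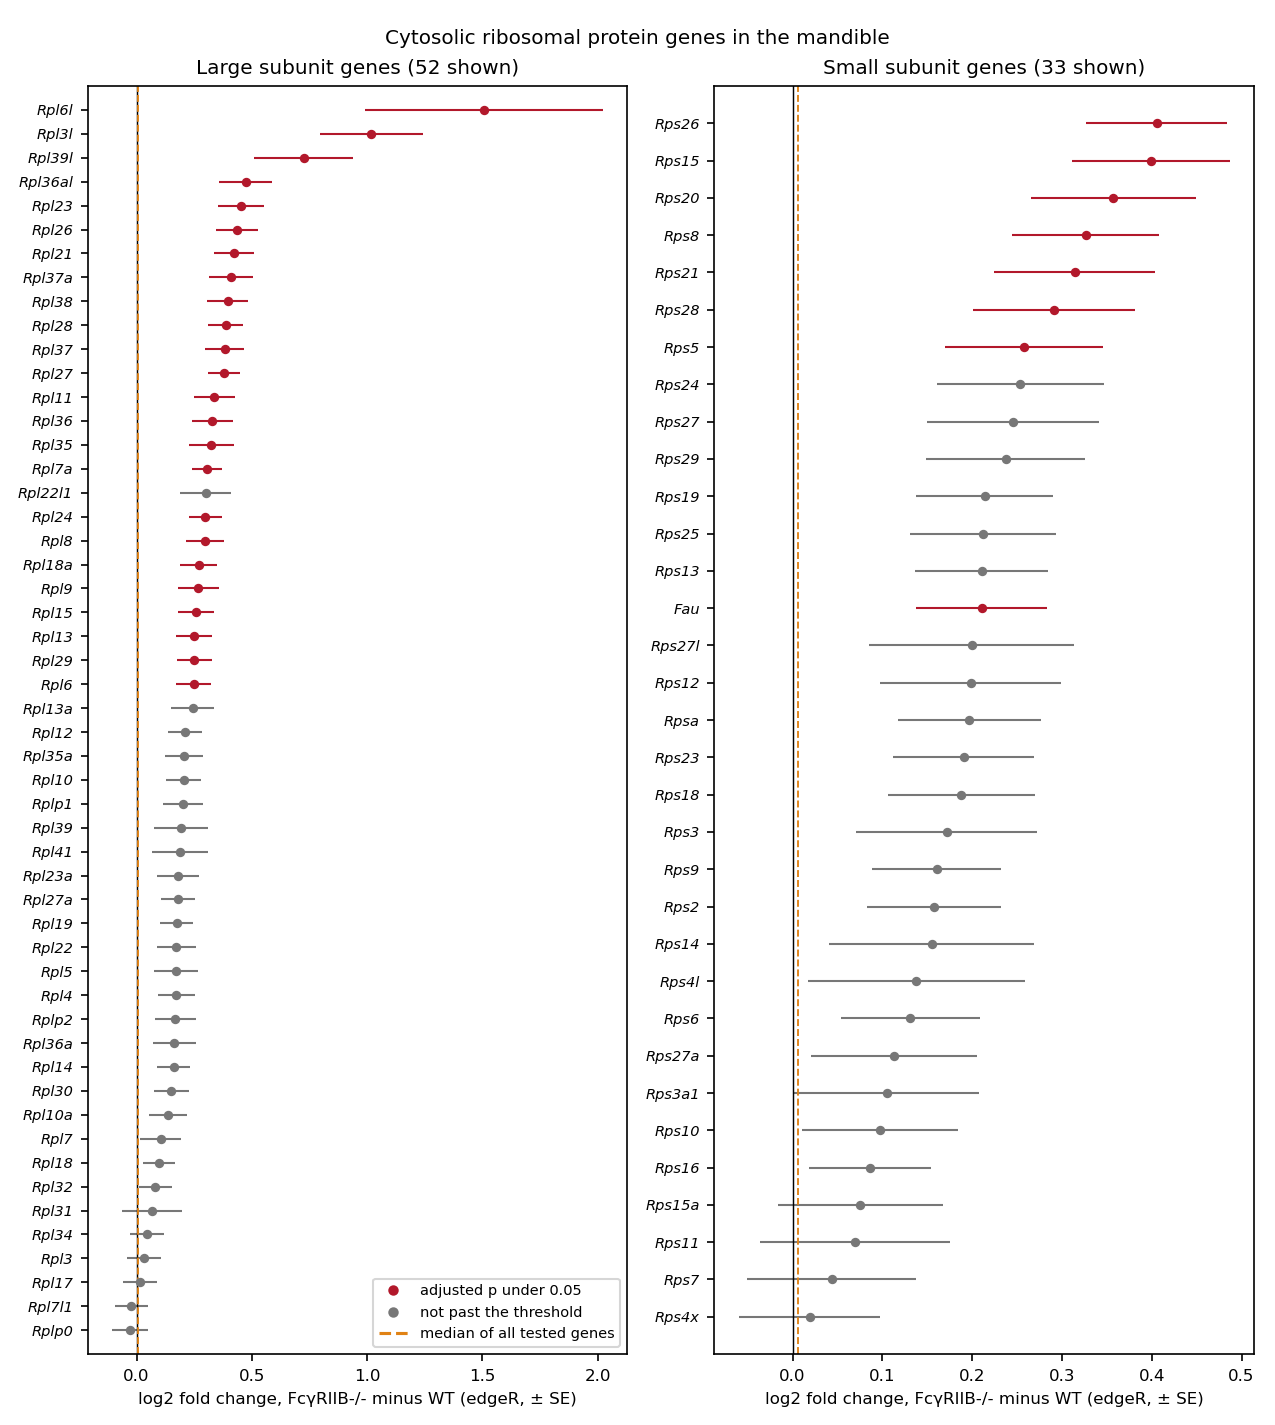
log2 fold change (x axis, libraries labelled FcγRIIB-/- minus WT, edgeR) of 85 of the 86 tested ribosomal protein genes, 52 of the large subunit on the left and 33 of the small subunit on the right, with bars of 1 SE. Red points passed an adjusted p of 0.05, and the dashed line is the median of all tested genes. All but Rplp0 and Rpl7l1 lie above 0, and the 3 at the top left (Rpl6l, Rpl3l and Rpl39l) stand apart from the core genes, whose highest value was 0.45 for Rpl23.

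Among core members of the large subunit, 20 of 46 were called higher (43.5%, beside 14.0% of all tested genes). Their median log2 fold change was 0.21, with an SD across genes of 0.118. *Rpl23*, whose protein lies where the subunits meet, had the largest value. It was at 327, 295, 323, 358 and 349 CPM in WT and at 423, 392, 529 and 466 CPM in the libraries labelled FcγRIIB-/-, with no overlap between the groups. The log2 fold change was 0.45 (SE 0.100, adjusted p = 0.00705, edgeR), and it passed the threshold whichever 1 library was left out. With the transcript length trend taken out *Rpl23* missed the threshold (0.26, adjusted p = 0.0520, edgeR). With the coding length trend taken out it passed (0.29, adjusted p = 0.0286, edgeR). *Rpl26*, a protein near the exit tunnel that also binds *Mdm2*, was at 237, 224, 253, 266 and 273 CPM in WT and 327, 303, 388 and 336 CPM in the other group (log2 fold change 0.43, SE 0.0921, adjusted p = 0.00573, edgeR). Here too every library labelled FcγRIIB-/- was above every WT library. *Rpl26* had 0.07 with the transcript length trend taken out (adjusted p = 0.575, edgeR) and 0.28 with coding length (adjusted p = 0.0262, edgeR). *Rpl21*, *Rpl37a*, *Rpl38*, *Rpl28*, *Rpl37* and *Rpl27* followed, with fold changes of 1.30 to 1.34, and all passed the threshold. Of these, only *Rpl21* and *Rpl28* passed with the transcript length trend taken out, and *Rpl27* passed as well with coding length. Of the 46 core members, 2 were called higher and 3 lower with the transcript length trend taken out. That stood beside 11.7% and 16.2% of all genes in that fit. With coding length 8 were called higher and 0 lower, beside 13.5% and 17.5% of all genes.

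Not all large subunit genes were called by edgeR. *Rpl3*, whose protein reaches towards the peptidyl transferase centre, was at 439, 436, 436, 488 and 452 CPM in WT and 435, 449, 486 and 470 CPM in the libraries labelled FcγRIIB-/- (log2 fold change 0.03, SE 0.0732, adjusted p = 0.773, edgeR). The groups overlapped almost fully. *Rpl4*, which lines the narrow part of the exit tunnel, had the highest level of all members, with 1009 ± 50.8 CPM in WT (SD, n = 5) and 1137 ± 48.6 CPM in the other group (SD, n = 4). Its libraries did not overlap between the groups, but its log2 fold change of 0.17 missed the threshold (SE 0.0805, adjusted p = 0.124, edgeR). DESeq2 called *Rpl4* higher (adjusted p = 0.0147). Of the 7 proteins around the tunnel exit, *Rpl26* and *Rpl35* (0.32, adjusted p = 0.0266, edgeR) were called higher, and *Rpl17* (0.01) and *Rpl31* (0.07) had the smallest log2 fold changes. This share of 28.6% stood beside 14.0% of all tested genes. With the transcript length trend taken out 0 of the 7 were called higher and 1 lower, beside 11.7% and 16.2% of all genes. With coding length 1 was called higher and 0 lower, beside 13.5% and 17.5%.

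In the small subunit 9 of 32 core members were called higher (28.1%, beside 14.0% of all tested genes). Their median log2 fold change was 0.20, with an SD across genes of 0.0999. *Rps26*, which contacts the mRNA as it leaves the ribosome, led this subunit. It was at 227, 187, 223, 232 and 219 CPM in WT and 275, 284, 290 and 304 CPM in the libraries labelled FcγRIIB-/-, with no overlap (log2 fold change 0.41, SE 0.0784, adjusted p = 0.00373, edgeR). *Rps15* was at 438, 367, 463, 427 and 412 CPM in WT and 566, 504, 588 and 564 CPM in the other group, again with no overlap (log2 fold change 0.40, SE 0.0878, adjusted p = 0.00692, edgeR). With the transcript length trend taken out, *Rps26* had 0.11 (adjusted p = 0.236, edgeR) and *Rps15* 0.02 (adjusted p = 0.822, edgeR). With coding length both passed, at 0.21 (adjusted p = 0.0375, edgeR) and 0.24 (adjusted p = 0.0333, edgeR). At the other end stood *Rps4x*, with 460, 434, 450, 516 and 467 CPM in WT and 456, 459, 509 and 463 CPM in the libraries labelled FcγRIIB-/-. Its highest library was a WT mouse, and its log2 fold change was 0.02 (SE 0.0787, adjusted p = 0.872, edgeR). Of the 32 core members, 1 was called higher and 0 lower with the transcript length trend taken out. That stood beside 11.7% and 16.2% of all genes in that fit. With coding length 3 were called higher and 0 lower, beside 13.5% and 17.5% of all genes.

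The stalk, which recruits the GTPase factors of elongation, was not called by edgeR in any of its 3 genes, while DESeq2 called *Rplp1* higher (adjusted p = 0.0206). *Rplp0*, its base, was at 866, 806, 816, 895 and 912 CPM in WT and 828, 883, 819 and 842 CPM in the libraries labelled FcγRIIB-/- (log2 fold change -0.03, SE 0.0780, adjusted p = 0.811, edgeR). All of the second group lay within the range of the first. The acidic stalk proteins *Rplp1* and *Rplp2* had log2 fold changes of 0.20 (adjusted p = 0.101, edgeR) and 0.17 (adjusted p = 0.170, edgeR). *Rplp1* was the member with the highest level per kb of transcript in WT, at 1528 CPM per kb.

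*Rpl5* and *Rpl11* form a particle with 5S rRNA that binds *Mdm2* when ribosome assembly fails. *Rpl11* was called higher, with 329, 297, 314, 326 and 305 CPM in WT and 367, 374, 471 and 375 CPM in the libraries labelled FcγRIIB-/- (log2 fold change 0.34, SE 0.0893, adjusted p = 0.0159, edgeR). The groups did not overlap, and replicate 3 stood above the other 3 of its group. The call was lost with total counts (adjusted p = 0.069, edgeR) and with the trend on transcript length (adjusted p = 0.459) or coding length (adjusted p = 0.0545) taken out. *Rpl5* was not called (0.17, SE 0.0949, adjusted p = 0.184, edgeR), with 391 to 464 CPM in WT and 439 to 546 CPM in the other group. Whether the 2 genes differ from each other was not tested.

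*Fau* and *Rps27a* are made as fusions to a ubiquitin-like protein and to ubiquitin. *Fau* passed the threshold narrowly, with 150 to 169 CPM in WT and 169 to 203 CPM in the libraries labelled FcγRIIB-/- (log2 fold change 0.21, SE 0.0732, adjusted p = 0.0472, edgeR). With 1 library left out it passed only without WT replicate 4 or FcγRIIB-/- replicate 2, and the adjusted p was otherwise up to 0.110. With the transcript length trend taken out *Fau* had -0.12 (adjusted p = 0.116, edgeR), and with coding length 0.04 (adjusted p = 0.656, edgeR). *Rps27a* did not pass (0.11, adjusted p = 0.370, edgeR). Of the 19 members in a list of Diamond-Blackfan anemia genes, 8 were called higher, among them *Rps26*, *Rpl26*, *Rpl27*, *Rpl11*, *Rps28*, *Rpl35* and *Rpl15*, with log2 fold changes of 0.26 to 0.43. This share of 42.1% stood beside 38.4% of all tested members and 14.0% of all tested genes. With the transcript length trend taken out 0 of the list were called higher, and with the coding length trend taken out 3 were. All genes in those fits had 11.7% and 13.5% called higher. *Rps19* was not called (0.21, SE 0.0764, adjusted p = 0.0522, edgeR), and the list's median of 0.25 stood beside 0.21 for all members.

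The shift of the members varied from mouse to mouse, and most members were above the WT mean in all 4 libraries labelled FcγRIIB-/- (70 to 75 of 78 in each). Against the mean of the WT libraries, the median log2 shift of the 78 core members was between -0.14 and 0.09 in the WT libraries and was 0.18, 0.15, 0.32 and 0.21 in the libraries labelled FcγRIIB-/-. FcγRIIB-/- replicate 3 held the highest value of 54 core members and FcγRIIB-/- replicate 4 of 16, and WT replicate 2 held the lowest value of 66. Only 6 of the 78 had their highest value in a WT library. Without FcγRIIB-/- replicate 3 the count of members called higher fell from 33 to 22, beside a fall from 14.0% to 11.5% of all tested genes. Without that library and WT replicate 2 together the count was 18 (median log2 fold change 0.14), with 9.25% of all tested genes then called higher.

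**Figure D2:**
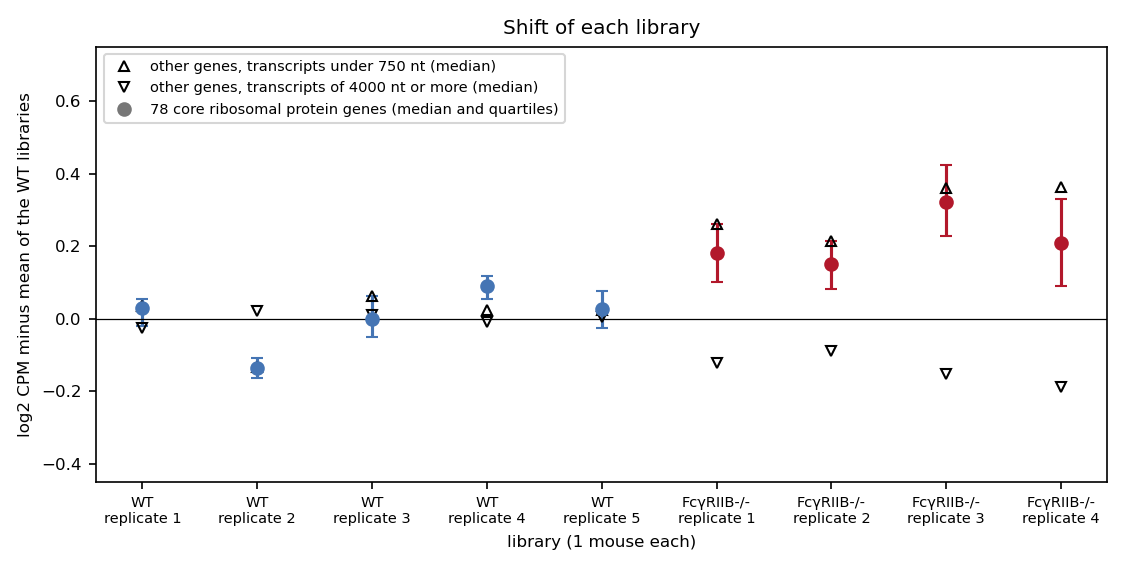
Median log2 CPM of each library minus the mean of the WT libraries (y axis) for the 78 core ribosomal protein genes (filled circles, bars from the lower to the upper quartile across genes), for 376 other protein-coding genes with transcripts under 750 nt (upward triangles) and for 4503 with transcripts of 4000 nt or more (downward triangles). The 9 libraries are along the x axis, WT in blue and FcγRIIB-/- in red. The ribosomal protein genes and the other short genes were both highest in the red libraries, with the long genes below 0 there.

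Ribosomal protein mRNAs are short, and the change between the groups followed transcript length over the whole table. The annotated transcripts of the core members had a median of 814.5 nt, against 2878 nt over the tested genes. Among other protein-coding genes, the median log2 fold change was 0.38 for transcripts under 500 nt, 0.29 from 500 nt to under 750 nt and 0.25 from 750 nt to under 1000 nt. It was 0.12 from 1000 nt to under 2000 nt, close to 0 from 2000 nt to under 4000 nt and -0.14 for 4000 nt and over. The share of these other genes called higher was 44.3%, 45.1%, 37.9%, 23.9%, 11.3% and 5.77% over the same classes. The 54 core members under 1000 nt lay below the other genes of their class, with medians of 0.24 (12 genes), 0.21 (20 genes) and 0.17 (22 genes), and the 20 core members from 1000 nt to under 2000 nt lay above theirs, at 0.20.

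The order turned with the measure of length. By coding length, core members lay above the other genes in each class that held any: 0.29 against 0.21 under 300 nt (9 members), 0.20 against 0.14 from 300 nt to under 600 nt (47 members), 0.18 against 0.06 from 600 nt to under 1200 nt (20 members), and 0.10 against -0.02 from 1200 nt to under 2400 nt (2 members). Within the core members themselves the log2 fold change had little relation to transcript length (Pearson r = -0.161, Spearman rho = -0.183, n = 78 genes that share libraries) or to mean log2 CPM (r = -0.210, rho = -0.166). The short genes that are no members were higher in the same libraries, with medians of 0.26, 0.21, 0.36 and 0.36 in the libraries labelled FcγRIIB-/- and -0.13 to 0.06 in WT.

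**Figure D3:**
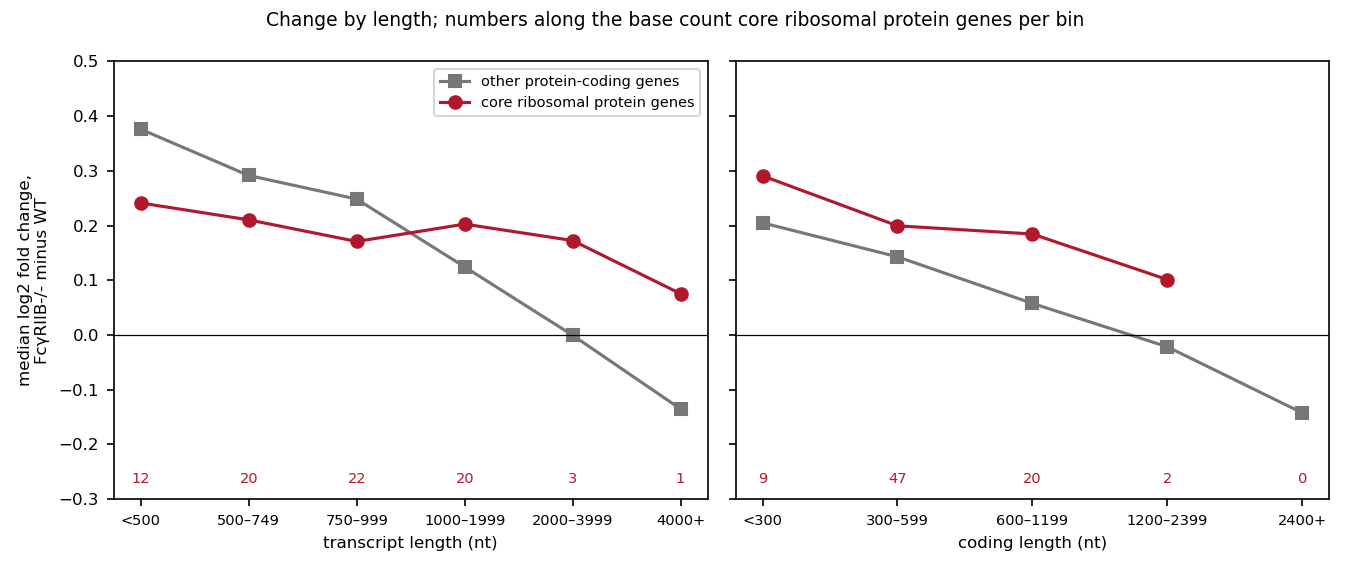
Median log2 fold change (y axis, libraries labelled FcγRIIB-/- minus WT) by class of transcript length (left) and coding length (right), for core ribosomal protein genes (red circles) and other protein-coding genes (grey squares). Red numbers along the base count the core members in each class. The other genes fall with length in both panels, while the members vary little between transcript classes that hold 12 or more of them. The members lie below the other genes in the 3 shortest transcript classes and above them in the classes of coding length.

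When the trend on transcript length, fitted in each library on genes that are no members, was taken out, 4 of 85 members were called higher (*Rpl3l*, *Rps20*, *Rpl21* and *Rpl28*) and 3 lower (*Rpl34*, *Rpl32* and *Rpl17*), beside 11.7% and 16.2% of all genes in that fit. The median log2 fold change of the members became -0.05, and 32 of 85 were positive. With the trend on coding length taken out instead, 12 of 84 were called higher and 0 lower, beside 13.5% and 17.5% of all genes, with a median of 0.06. *Rps20* has a long annotated transcript of 3706 nt, and it was called with the first length (adjusted p = 0.00857, edgeR) and not with the second (adjusted p = 0.118, edgeR). *Rpl3l*, *Rpl21* and *Rpl28* were called higher with both. The number of members called thus depended on whether and how length was treated, and what the trend comes from was not tested.

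To see which members departed from the common shift, counts were scaled to the sum of the 88 members in each library. On that scale 3 members were called higher and 1 lower, beside 3.68% and 33.7% of all tested genes. *Rpl3l* had a log2 difference of 0.83 (adjusted p = 0.00893), *Rpl23* of 0.24 (adjusted p = 0.0382) and *Rpl26* of 0.23 (adjusted p = 0.0409), and *Rpl7l1* had -0.23 (adjusted p = 0.0177), all by edgeR. Only *Rpl3l* passed without each library in turn, and the calls of *Rpl23* and *Rpl26* were lost in most of those fits. The count called higher was 1 without WT replicate 1, 2 or 4 or FcγRIIB-/- replicate 1, and 5 or 6 without FcγRIIB-/- replicate 3 or 2.

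*Rpl3l*, on chr17:24727826-24736143, is the paralogue of *Rpl3* found in heart and skeletal muscle. It was at 84.3, 40.5, 70.7, 80.0 and 82.3 CPM in WT and at 189, 105, 120 and 167 CPM in the libraries labelled FcγRIIB-/-, with no overlap. This was a 2.03-fold difference (log2 fold change 1.02, SE 0.224, adjusted p = 0.00690, edgeR), with means of 71.6 ± 18.1 CPM (SD, n = 5) and 145 ± 39.3 CPM (SD, n = 4). Per 1000 CPM of the summed skeletal muscle markers, *Rpl3l* was at 5.94 to 7.16 in WT and 6.41 to 7.30 in the other group, so that the groups overlapped. On that scale the log2 difference was 0.07 (two-sided exact permutation p = 0.302 over all splits of the mice).

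Ratios of a paralogue to its core gene within a library do not depend on library size, though they can follow a trend on length where the transcripts differ, and 7 pairs could be tested with an exact permutation of the genotypes among the mice, whose smallest possible p is 0.00794. The log2 ratio of *Rpl3l* to *Rpl3* rose by 0.99 (exact p = 0.00794, 0.0278 after Benjamini-Hochberg adjustment over the 7 pairs), from -2.70 ± 0.420 (SD, n = 5) to -1.71 ± 0.426 (SD, n = 4). *Rpl22l1*, the paralogue of *Rpl22*, differed by 0.12 against it (exact p = 0.00794, adjusted 0.0278), from -1.80 ± 0.0247 to -1.68 ± 0.107. In both pairs the groups did not overlap. In the test across all genes *Rpl22l1* itself missed the threshold (log2 fold change 0.30, SE 0.109, adjusted p = 0.0557, edgeR), and its FcγRIIB-/- replicate 3 was at 123 CPM against 86.4 to 92.5 CPM in the other 3. Without that library the log2 ratio differed by 0.06 (exact p = 0.0179). Transcripts of this pair differ in length, at 552 and 2051 nt, and with the transcript length trend taken out the order turned, with log2 fold changes of -0.05 for *Rpl22l1* and 0.12 for *Rpl22*.

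The other 5 pairs did not pass. *Rpl36al*, a close copy of *Rpl36a*, had 23.8 counts per 100 counts of *Rpl36a* in the libraries labelled FcγRIIB-/-, and the log2 ratio differed by 0.30 (exact p = 0.0238, adjusted 0.0556). *Rpl36al* itself was called higher (log2 fold change 0.47, SE 0.115, adjusted p = 0.0108, edgeR) at 28.9 to 34.9 CPM in WT and 34.4 to 54.6 CPM in the other group, which overlapped. It was not called with the trend on transcript length (adjusted p = 0.484, edgeR) or coding length (adjusted p = 0.0706, edgeR) taken out. The ratio of *Rpl7l1* to *Rpl7* differed by -0.13 (exact p = 0.0556, adjusted 0.0972). That of *Rps4l* to *Rps4x* differed by less than the SD of either group (0.11, exact p = 0.50). For *Rps27l* to *Rps27* (-0.06, exact p = 0.452) the difference was larger in size than the WT SD of 0.0419. It was smaller than the SD of 0.169 in the libraries labelled FcγRIIB-/-. *Rpl39l*, known from testis, was called higher at a low level, 2.17 to 3.60 CPM in WT and 3.77 to 6.56 CPM in the libraries labelled FcγRIIB-/- (log2 fold change 0.73, SE 0.215, adjusted p = 0.0258, edgeR), and it missed the threshold without WT replicate 1 (adjusted p = 0.0522) or FcγRIIB-/- replicate 2 (adjusted p = 0.0774). With the trend on transcript length (adjusted p = 0.14, edgeR) or coding length (adjusted p = 0.194, edgeR) taken out, *Rpl39l* was not called. Its ratio to *Rpl39* differed by 0.54 (exact p = 0.103, adjusted 0.144). Reads of such near-identical copies may be split between them, since the treatment of reads with several matches is not given in the sources used here.

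**Figure D4:**
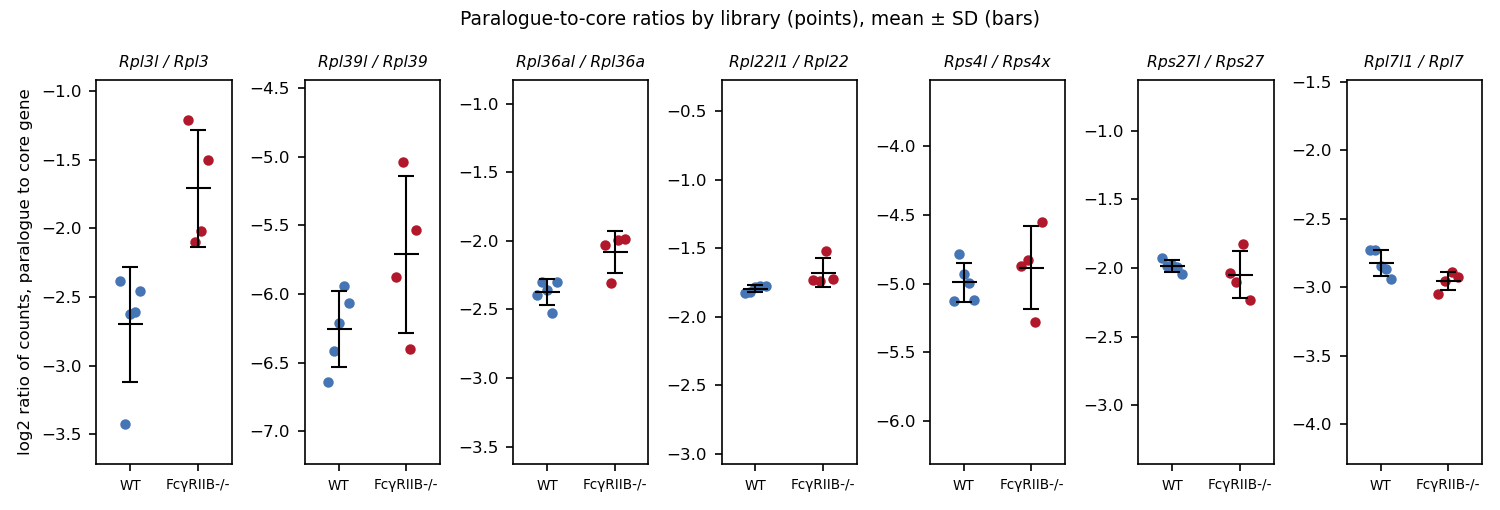
log2 ratio of counts of a paralogue to its core gene (y axis, each panel spanning the same range at its own level) in 7 pairs, with 1 point per library and bars of mean ± SD, WT in blue and FcγRIIB-/- in red. Only Rpl3l to Rpl3 and Rpl22l1 to Rpl22 have all red points above all blue ones.

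The lowest members were few. *Rpl10l*, known from testis, had 0 counts in every library, and *Rpl32l* had at most 8 counts in a library, so neither was tested. *Rpl6l* had the largest log2 fold change of all members, 1.51 (SE 0.516, adjusted p = 0.0445, edgeR), and it rested on FcγRIIB-/- replicate 1. That library was at 4.34 CPM, the other 3 of its group were at 0.862 to 0.970 CPM and WT at 0.361 to 0.848 CPM. Without it the log2 fold change was 0.52 (adjusted p = 0.196, edgeR), and without any 1 of the WT mice the adjusted p was 0.0537 to 0.0783. Per kb of transcript, which allows levels of different genes to be compared, the lowest tested members in WT other than *Rpl6l*, for which no length was found, were *Rpl39l* at 3.52, *Rps4l* at 18.5 and *Rpl7l1* at 27.8 CPM per kb. The highest after *Rplp1* were *Rps14* at 980.1 and *Rps15* at 843 CPM per kb.

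The rest of the translation machinery was counted in the same fit. Of 78 mitochondrial ribosomal protein genes, which build the separate ribosome of mitochondria, 63 were called higher and 0 lower (80.8%, median log2 fold change 0.36). Over all tested genes 14.0% were called higher. *Mrpl51* was at 25.1 to 34.9 CPM in WT and 41.7 to 55.2 CPM in the libraries labelled FcγRIIB-/- (log2 fold change 0.67, SE 0.109, adjusted p = 0.00179, edgeR), and *Mrps21* had a log2 fold change of 0.64 (adjusted p = 0.00170, edgeR). With the transcript length trend taken out, 33 of the 78 were called higher and 0 lower, with a median of 0.21, beside 11.7% of all genes called higher. With coding length, 44 were called higher and 0 lower, beside 13.5% of all genes called higher.

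Initiation factors were called higher in 9 of 36 genes and lower in 1, led by *Eif5b*, which joins the subunits (log2 fold change 0.70, adjusted p = 0.00119, edgeR), and *Eif3j1* (0.50, adjusted p = 0.00646, edgeR). Among 12 elongation factors 2 were called higher, *Eef1d* (0.42, adjusted p = 0.00309, edgeR) and *Eef1g* (0.20, adjusted p = 0.0416, edgeR), both subunits of the factor that recharges eEF1A with GTP. Of 38 ribosome assembly genes 7 were called higher and 0 lower, with *Nop16* (0.47, adjusted p = 0.00457, edgeR) and *Pno1* (0.43, adjusted p = 0.0147, edgeR) in front. The initiation, elongation and assembly shares called higher, 25%, 16.7% and 18.4%, stood beside 14.0% over all tested genes. With the transcript length trend taken out 5, 1 and 7 genes of these lists were called higher and 0 lower. With coding length 8, 2 and 9 were called higher, and 2 initiation factors lower. Over all genes in those fits, 11.7% and 13.5% were called higher and 16.2% and 17.5% lower.

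Genes that share the TOP motif but are no ribosomal proteins were called in both directions. Of 21 tested, 4 were called higher (19.0%) and 2 lower (9.52%), beside 14.0% and 19.3% of all tested genes. With 1 library left out 1 to 5 were called higher, and DESeq2 called 7 higher. *Gas5*, a non-coding host gene of small nucleolar RNAs with a TOP start, was at 146 to 171 CPM in WT and 67.3 to 102 CPM in the libraries labelled FcγRIIB-/-, with no overlap (log2 fold change -0.97, SE 0.115, adjusted p = 0.000444, edgeR). Of 16 regulators of ribosome production and translation, 0 were called higher and 1 lower, and with the trend on transcript length or coding length taken out 3 and 2 were called higher and 1 lower. Over all genes in those 2 fits, 11.7% and 13.5% were called higher and 16.2% and 17.5% lower. The gene called lower was *Eif4ebp2*, a repressor of cap-dependent initiation, at 31.7 to 42.8 CPM in WT and 14.5 to 20.7 CPM in the other group (log2 fold change -1.06, SE 0.131, adjusted p = 0.000516, edgeR). *Myc*, *Mtor* and *Larp1* had log2 fold changes of 0.07, -0.01 and 0.10 and were not called, with adjusted p of 0.664, 0.902 and 0.398 by edgeR.

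**Figure D5:**
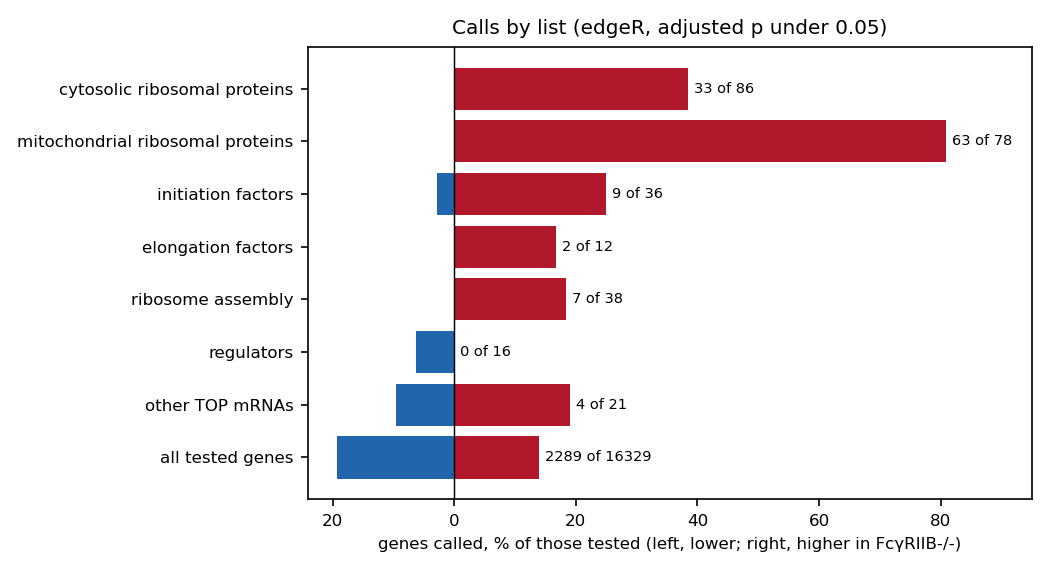
Share of the tested genes of each list (y axis) called higher (red, to the right) or lower (blue, to the left) in the libraries labelled FcγRIIB-/-, in percent (x axis), with the number called higher of those tested beside each bar. Cytosolic ribosomal protein genes, at 33 of 86, lie between mitochondrial ribosomal protein genes, at 63 of 78, and all tested genes, at 2289 of 16329.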

How the data were processed

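Poly(A) RNA of whole mandibles was sequenced as single-end reads. The authors deposited raw counts per gene, made with featureCounts from reads that Trim Galore had trimmed and HISAT had placed on mm10. Annotation, strand setting and reads with several matches are not given in the sources used here, and 34 rows are ribosomal protein pseudogenes (940 to 1344 counts per library in all). A column of the table that matches no sample (1 in number) was not used. Counts were tested with edgeR 4.0.16 in R 4.3.3 (filterByExpr with a minimum of 10 counts, library sizes over the 16329 tested genes, TMM, quasi-likelihood test, Benjamini-Hochberg adjustment at 0.05). CPM used TMM-scaled library sizes, log2 CPM a prior count of 2, and paralogue ratios a pseudocount of 0.5 on counts. DESeq2 1.42.0, other scalings, other filters, a replicate block and fits without each library were alternatives. SE was the size of the log2 fold change divided by the root of F. Lengths came from GENCODE M21, which covered 87 of the 88 members, and start sites and coordinates from RefSeq GRCm38.p6. Length trends were fitted by lowess with a span of 0.3, after the values were seen. Fits were tested on simulated data. Total counts of 21453880 to 28991631 limit only the lowest members. Members and lists were chosen with earlier results of these data known. Named members are the 5 largest changes past the threshold in each direction, the 3 highest and 3 lowest in CPM, stalk, 5S particle and ubiquitin fusion genes, paralogue pairs and untested members, and of other lists the 2 largest called changes. Other named members were chosen after their values were seen. Some genes that these rules name are not reported here, and 1 is left out of the plot of members.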

Additional observations from a re-analysis of the deposited data

Results flagged for a closer look

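In each group of 4 or 5 libraries, the named members were examined for a library that stood apart from the others by most of the group's range (Dixon's ratio), in 52 groups, and chance marks about 1 in 20 groups. *Rpl6l* was at 4.34 CPM in FcγRIIB-/- replicate 1 and at 0.862 to 0.970 CPM in the other 3 of its group. The remaining cases all lay in FcγRIIB-/- replicate 3, which was also the highest library of 54 core members. There *Rpl11* was at 471 CPM against 367 to 375 CPM, *Rpl36a* at 217 CPM against 170 to 178 CPM, and *Rps4x* at 509 CPM against 456 to 463 CPM. *Rpl7l1* was at 83.1 CPM against 66.7 to 67.9 CPM, and *Rpl22l1* at 123 CPM against 86.4 to 92.5 CPM.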

How the results depend on the processing

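The count of members called higher was 33, and 0 were called lower under every alternative listed in the methods other than the length trends. It was 16 with total counts and no TMM, where 8.02% of all tested genes were called higher against 14.0% with TMM. There 25.7% of the genes called were higher, against 42.1% with TMM. The count of members was 53 with DESeq2, beside 14.9% of the genes it tested. Without each library in turn it was 22 to 35, beside 10.8% to 14.1% of all tested genes. Of alternatives chosen after seeing the data, it was 18 without FcγRIIB-/- replicate 3 and WT replicate 2, 4 with the transcript length trend removed (3 lower, median -0.0496) and 12 with the coding length trend removed (median 0.0647). Also among these, it was 40 with library sizes over all genes and 44 with upper quartile scaling. Beside these last counts, 15.7% and 15.3% of all tested genes were called higher. The cause was not tested. Total counts turned *Rpl3* to -0.0459 and *Rps4x* to -0.0567. Without 1 library, *Rpl7l1* ranged from -0.105 to 0.0078, *Rplp0* from -0.0504 to 0.0181 and *Rps4x* from -0.0199 to 0.0778. Members called after scaling to their sum ranged from 1 to 6 higher and 0 to 2 lower. The genes of the other translation lists called higher were 83, 53 with total counts, and those called lower 4, 8 with total counts and 2 to 4 without each library in turn. Without each library, the difference in log2 ratio ranged from 0.26 to 0.37 for *Rpl36al*, where it missed an unadjusted exact p of 0.05 in 8 of 9 cases, from -0.16 to -0.10 for *Rpl7l1*, from 0.32 to 0.77 for *Rpl39l*, from -0.136 to -0.0007 for *Rps27l* and from -0.0014 to 0.241 for *Rps4l*. The share of counts was 2.995% in the libraries labelled FcγRIIB-/- without haemoglobin and mitochondrially encoded genes. The labels do not say whether the replicate numbers pair the mice. Deviations of same-numbered libraries had correlations of 0.097, 0.028, -0.114 and -0.074, which cannot decide it. With the replicate block 25 members were called higher, beside 9.76% of all tested genes, and *Rpl6l*, *Rpl39l* and *Fau* missed the threshold.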
